A study of Drosophila melanogaster with 4 samples.

Results

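Chromatin from whole Drosophila melanogaster embryos was immunoprecipitated with an anti-GFP antibody in 4 biological replicates of a single group, strain Dll-GFP, whose transgene makes a fusion of the homeodomain factor Distal-less with eGFP (Dll-eGFP). The embryos were collected over 0-24 hours and the chromatin was sonicated to 200-800 bp. The 93 cytosolic ribosomal protein (RP) genes were taken from 13968 protein-coding genes as every symbol of RpS, RpL or RpLP followed by a digit, plus sta, the gene of the small subunit protein known as RpSA in other species. By symbol, 39 of these were counted as small and 54 as large subunit genes, and 27 in 13 families have at least 1 copy under the same protein name. These counts include RpL24-like and RpLP0-like, which resemble assembly factors, as described below. A gene had a promoter peak when the summit of a peak lay within 500 bp of one of its transcription start sites (TSSs). All 4 replicates carried the fusion, and no mock, input or untagged list was analysed here, so values show where the deposited peaks lie and not how they depend on Dll. Whole embryos of mixed age were used, so signal in few cells and weak signal in many cells cannot be told apart.

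Each cytosolic ribosome carries 1 small and 1 large subunit, and its proteins are needed in nearly equal amounts in every growing cell. In Drosophila the RP genes are known for strong, broadly active promoters without a TATA box, for a polypyrimidine initiator at the TSS in place of the usual initiator, and for snoRNAs encoded in their introns. The factor DREF, its site TATCGATA, and the insulator protein BEAF-32, which binds CGATAT, are known at many Drosophila housekeeping promoters. Distal-less is best known for patterning limbs and the head, and homeodomain proteins of its kind bind TAATTA-like sites.

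The promoters of the 4 RP genes with the highest ranked peaks and of a pair of copies of which only 1 had a peak are shown because the motifs in them are taken up in the results below. Each runs 5′ to 3′ from 200 bp before to 20 bp into the transcript, read from the Release 6 (dm6) assembly, with capitals marking the DREF site TATCGATA, the BEAF-32 site CGATAT, the M1BP site GGTCACAC, the GAGA factor site GAGAGAG, the homeodomain core TAATTA or the E-box CAGCTG on either strand, and the initiator letters CTTT starting within 5 bp of the TSS. For genes with a conservative peak the TSS is the one nearest to the strongest summit, which need not be the canonical one, and for RpS10a it is the Ensembl canonical TSS. RpL32 lies at chr3R:30046142-30046361 (minus strand), RpS7 at chr3R:30209001-30209220 (minus strand), RpL26 at chr3L:18898675-18898894 (plus strand) and RpS2 at chr2L:9897533-9897752 (minus strand). RpS10b lies at chrX:19597831-19598050 (plus strand) and its copy RpS10a at chr3R:27652560-27652779 (plus strand).
RpL32: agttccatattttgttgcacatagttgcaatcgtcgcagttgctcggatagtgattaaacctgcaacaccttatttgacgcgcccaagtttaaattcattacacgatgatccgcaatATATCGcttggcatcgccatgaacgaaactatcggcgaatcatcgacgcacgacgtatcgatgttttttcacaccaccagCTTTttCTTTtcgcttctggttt
RpS7: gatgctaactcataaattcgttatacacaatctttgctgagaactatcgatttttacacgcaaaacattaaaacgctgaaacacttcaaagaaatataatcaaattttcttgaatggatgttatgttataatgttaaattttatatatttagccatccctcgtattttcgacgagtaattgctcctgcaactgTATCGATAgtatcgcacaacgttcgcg
RpL26: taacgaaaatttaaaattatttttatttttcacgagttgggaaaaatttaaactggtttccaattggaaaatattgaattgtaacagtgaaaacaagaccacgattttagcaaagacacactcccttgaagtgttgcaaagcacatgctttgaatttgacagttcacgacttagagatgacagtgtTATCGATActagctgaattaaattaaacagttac
RpS2: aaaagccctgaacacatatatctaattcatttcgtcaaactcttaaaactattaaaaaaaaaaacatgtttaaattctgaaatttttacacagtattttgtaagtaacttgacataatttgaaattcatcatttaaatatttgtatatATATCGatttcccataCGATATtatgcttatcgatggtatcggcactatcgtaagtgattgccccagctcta
RpS10b: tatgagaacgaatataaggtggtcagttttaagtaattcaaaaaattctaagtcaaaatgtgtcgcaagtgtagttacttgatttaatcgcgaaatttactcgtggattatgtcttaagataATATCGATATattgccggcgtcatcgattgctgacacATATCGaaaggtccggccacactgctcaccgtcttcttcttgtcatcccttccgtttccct
RpS10a: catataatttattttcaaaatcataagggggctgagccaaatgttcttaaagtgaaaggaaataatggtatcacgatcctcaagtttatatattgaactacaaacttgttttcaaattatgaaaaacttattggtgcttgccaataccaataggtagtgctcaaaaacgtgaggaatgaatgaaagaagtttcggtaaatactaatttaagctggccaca

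Within these windows RpS7 carried TATCGATA starting at -7 bp and RpL26 at -14 bp from the TSS. RpL32 carried CGATAT at -83 bp on the strand opposite the gene and CTTT on either side of the TSS, and RpS2 carried CGATAT on both strands. RpS10b carried TATCGATA overlapped by CGATAT on both strands and a further CGATAT closer to the TSS, while the window of RpS10a matched none of the motifs. Relative to the TSS, with negative values upstream, the strongest conservative summit lay at -113 bp in RpL32, -95 bp in RpS7, 79 bp in RpL26, -38 bp in RpS2 and -204 bp in RpS10b.

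In the list over all replicates that the authors named conservative, 53 of the 93 RP genes had a promoter peak. That is 57% (exact 95% binomial interval 46.3 to 67.2%, counting error only), against 32.7% of all protein-coding genes and 32.5% of the genes that are not RP genes. The peak lists hold 5203 nuclear peaks in the conservative list and 3609, 3610, 2523 and 2884 in the own lists of replicates 1 to 4, and they carry no read counts, so sequencing depth is unknown. Each replicate also has its own thresholded list, and in these own lists 49, 47, 42 and 38 RP genes had a peak in replicates 1 to 4, where 26.2, 27.1, 20.5 and 22.6% of all protein-coding genes had one. The RP share averaged 47.3 ± 5.34% and that of other protein-coding genes 23.9 ± 3.04% (SD, n = 4). The RP share was the higher in 4 of 4 replicates. The difference was 23.4 ± 3.55 points, a ratio of 1.98. An exact two-sided sign-flip permutation test over the replicates gave p = 0.13 (0.25 after Benjamini-Hochberg adjustment over the 6 comparisons made), the smallest p that 4 replicates allow. No comparison between gene groups here could therefore pass 0.05.

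**Figure D1:**
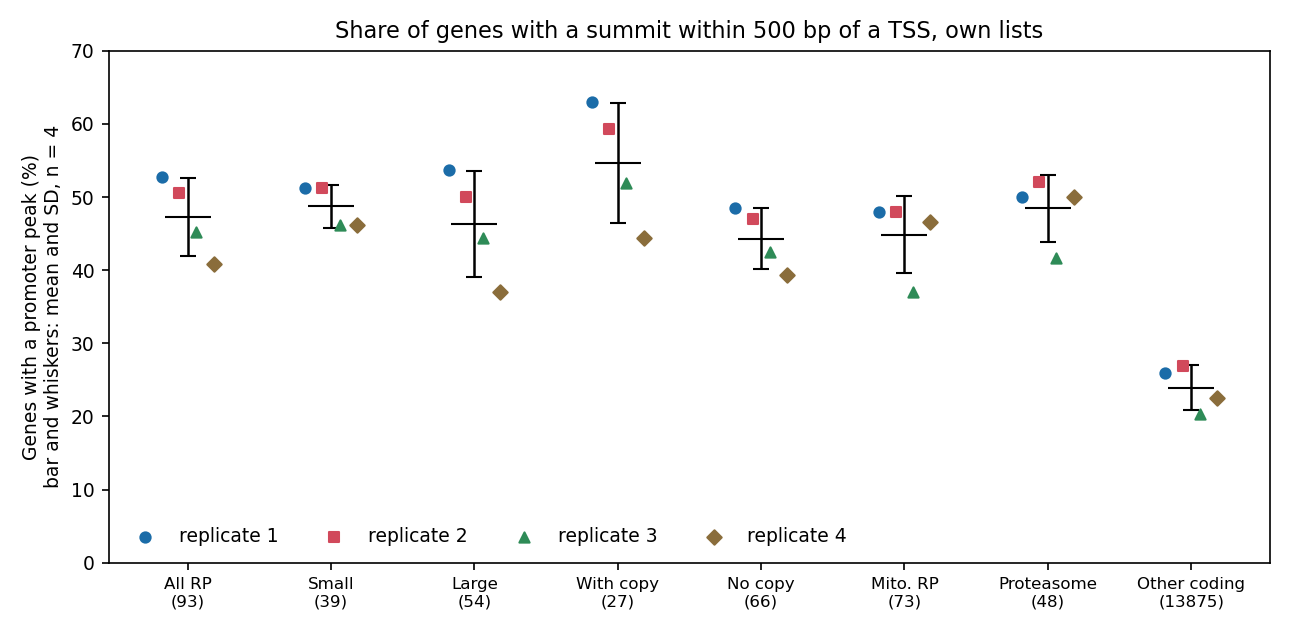
Share of genes with a promoter peak in each replicate's own list (percent, vertical axis) for the RP genes, their subsets, 2 other gene families and all other protein-coding genes, with the number of genes in brackets. Points are replicates, bars are means and whiskers SDs; RP genes averaged 47.3% and other protein-coding genes 23.9%, with no overlap between those 2 groups' replicates.

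Support across replicates was divided. A peak was present in all 4 own lists for 36 RP genes (38.7%, against 17.6% of all protein-coding genes) and in at least 1 for 52 (55.9%, against 31.6%). The remaining 41 had none, and 6, 4 and 6 had a peak in 1, 2 and 3 lists. Of the 53 RP genes with a conservative peak, 35 had a peak in all 4 own lists. The 5 with none, which include RpLP1, RpS20, RpS15 and RpL22, had conservative peaks that ranked between 65.8 and 82.5% from the top of that list. Conversely 4 RP genes had an own peak and no conservative one. Among these, RpL27A and RpL40 had it in 1 list each, and RpLP0-like in all 4. Of genes without a conservative peak, 90% of RP genes and 96.0% of other genes had no own peak either.

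Peaks were next ranked by the authors' signal within each list, so that 0% is the top; signal itself was not compared between lists. Among genes with a peak the median rank was 31.2 ± 2.06% for RP genes and 37.9 ± 1.56% for other genes (SD, n = 4). RP peaks stood higher in 4 of 4 replicates, by 6.68 ± 2.60 points (exact two-sided sign-flip permutation p = 0.13, adjusted 0.25). Across RP genes with a peak in both lists of a pair, ranks of 2 replicates had a Spearman correlation of 0.927 ± 0.0223 over the 6 pairs, against 0.926 ± 0.0133 for other genes. These correlations are across genes, which are not independent replicates, and are given as a description.

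The 12 RP genes with the best mean rank among those with a peak in every own list comprised 8 small and 4 large subunit genes. RpS7, a protein needed for early assembly of the small subunit, ranked at 0.887, 1.52, 3.21 and 1.46% in replicates 1 to 4. RpS2, which lines the mRNA entry of the small subunit, ranked at 4.6, 3.55, 7.25 and 3.40%. RpS13 ranked at 3.49, 5.68, 5.75 and 8.25%. All 3 were inside the top 10% in every replicate, with replicate 3 the weakest for RpS7 and RpS2 and replicate 4 for RpS13.

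RpS10b, a protein of the small subunit head, ranked at 8.59, 9.17, 9.0 and 3.74%, and replicate 4 stood above the other replicates. RpS24 ranked at 7.29, 7.26, 8.64 and 7.66%, the most even of the small subunit genes in this group of 12. RpS28a, whose protein sits near the mRNA exit, ranked at 5.43, 8.03, 13.1 and 6.69%. Its conservative summit lay 306 bp downstream of the RpS28a TSS and 121 bp from the nearest TSS of another gene, Mgat2 or Axn. With summits limited to 250 bp, or given to the nearest TSS only, RpS28a had a peak in 3 own lists at a mean rank of 54.4%. RpS28a and RpS30 were outside the top 10% in 1 replicate each, and RpS25 was outside it in every replicate. RpS30, made in animals as a fusion with a ubiquitin-like protein, ranked at 7.07, 7.2, 9.12 and 13.0%, and RpS25 at 10.3, 11.2, 13.4 and 22.2%.

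Among large subunit genes RpL32, widely used as a reference transcript in Drosophila, was the highest RP gene in every replicate at 0.166, 0.194, 0.555 and 0.208%. Its peak stood at position 5 of the conservative list. RpL26, a protein at the exit tunnel, ranked at 4.43, 2.38, 4.4 and 4.09%. RpL34a ranked at 9.17, 8.28 and 9.85% in replicates 1, 2 and 4 and at 22.2% in replicate 3. A single replicate stood apart from the others in each of RpL26, RpL32 and RpL34a.

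The stalk of the large subunit, which recruits elongation factors, is built from RpLP0, RpLP1 and RpLP2. RpLP0 ranked at 58.5, 36.5 and 74.8% in replicates 1 to 3 and had no own peak in replicate 4. RpLP2 had an own peak in replicates 1 and 2 at 59.2 and 82.9%, and RpLP1 had a conservative peak only. None of the 3 ranked above 36.5% in any replicate. The small subunit gene sta ranked at 50.7 and 59.4% in replicates 1 and 2 and had no own peak in replicates 3 and 4. The summit of sta was shared with inc, whose TSS lay 47 bp from it.

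**Figure D2:**
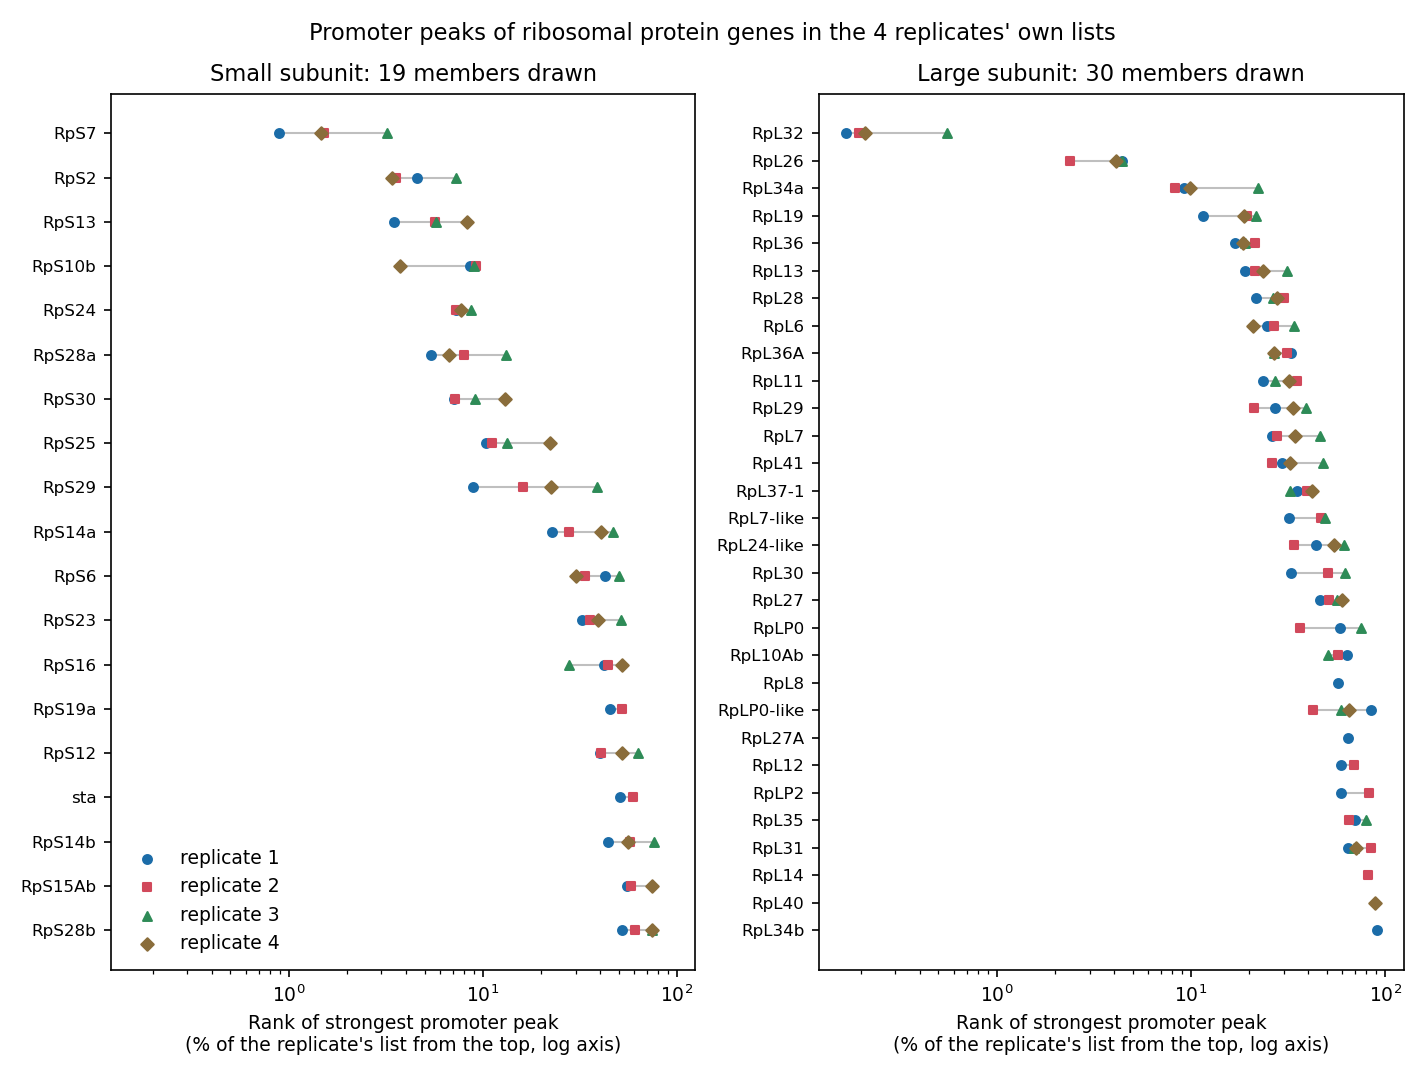
Rank of the strongest promoter peak (percent of the replicate's own list from the top, log axis) for 19 small subunit genes (left) and 30 large subunit genes (right) with a peak in at least 1 own list. Each symbol is a replicate and the line spans a gene's replicates; RpL32 sits below 1% in all 4 and most genes spread between 10 and 100%.

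A conservative peak was present at 23 of 39 small subunit genes (59.0%) and 30 of 54 large subunit genes (55.6%). By replicate, small subunit genes stood at 51.3, 51.3, 46.2 and 46.2% in replicates 1 to 4, and large subunit genes at 53.7, 50, 44.4 and 37.0%. The groups overlapped, and the difference was 2.42 ± 4.83 points (higher in 3 of 4 replicates, exact two-sided sign-flip permutation p = 0.5, adjusted 0.6). It was 4.04 points without replicate 1, 0.190 points without replicate 4 and 9.90 points when each summit went to the nearest TSS only. Among genes with a peak, the median rank was 27.5 ± 1.78% for small and 33.2 ± 2.78% for large subunit genes, higher up the list for small subunit genes in 4 of 4 replicates. In the ranked lists, which also hold candidates below the threshold, the difference in median rank was 0.37 ± 1.2 points, with 2 of 4 replicates each way.

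The order of the subunits depended on whether another gene's TSS was near. For genes with no other protein-coding TSS within 500 bp of their own, 53.3 ± 2.17% of 23 small and 31.3 ± 8.07% of 32 large subunit genes had an own peak. That difference, a split made after seeing the data, was 22 ± 8.88 points and positive in 4 of 4 replicates. The 32 large subunit genes include all 7 RP genes without a candidate in any ranked list, named below. For genes with another TSS within 500 bp the order was the other way, with 42.2 ± 9.38% of 16 small and 68.2 ± 6.43% of 22 large subunit genes. Split by TATCGATA in the promoter instead, small minus large was 0.385 ± 8.74 points with it and -1.60 ± 4.61 points without. None of these splits was tested.

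A conservative peak was present at 17 of 27 genes with a copy (63.0%) and 36 of 66 genes without (54.5%). By replicate, genes with a copy stood at 63.0, 59.3, 51.9 and 44.4% in replicates 1 to 4, and genes without at 48.5, 47.0, 42.4 and 39.4%. Genes with a copy were higher in 4 of 4 replicates, by 10.3 ± 4.07 points (exact two-sided sign-flip permutation p = 0.13, adjusted 0.25). In promoters with no other TSS within 500 bp the difference was -2.92 ± 3.23 points, with 38.3 ± 3.33% of 15 genes with a copy and 41.3 ± 5.20% of 40 genes without. Among the upper 50% of own peaks by signal it was 0.547 points. In the ranked lists it was -6.02 ± 7.69 points, lower for genes with a copy in 3 of 4 replicates.

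In the conservative list the copies differed in having a peak within 10 of the 13 families. In the other 3, RpS14a and RpS14b, RpL34a and RpL34b, and RpL7 and RpL7-like, every copy had a conservative peak. As 63.0% of genes with a copy had such a peak, some families would differ by chance, and how many was not tested. The own lists did not separate every differing family. RpLP0 and RpLP0-like both had own peaks, and neither RpL22 nor RpL22-like had one. RpS10b has been described, and its copy RpS10a, expressed mainly in testis, had no thresholded peak and candidates in 2 ranked lists only, at a mean rank of 84.4%. RpL37-1 ranked at 35.1, 39.6, 32.3 and 42.0%, and RpL37-2 had no thresholded peak. In these pairs 1 copy was marked in every replicate and the other in none.

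RpS19a, whose human relative is mutated in Diamond-Blackfan anaemia, ranked at 45.3 and 52.2% in replicates 1 and 2 only, and RpS19b had no thresholded peak. RpL10Ab, the protein of the L1 stalk, ranked at 63.6, 57.1 and 50.5% in replicates 1 to 3, and RpL10Aa had no candidate in any list. RpS15Ab ranked at 55.4, 58.2 and 73.9% in replicates 1, 2 and 4, and RpS15Aa had no thresholded peak. These 3 peaks ranked below that of RpL37-1 and were absent from 1 or 2 replicates each. Of these, 2 had their strongest conservative summit nearer to another gene's TSS. It lay 250 bp from the TSS of RpS19a and 230 bp from that of Rok. For RpS15Ab it lay 72 bp from the TSS, and 36 bp from that of Lsm10. RpL22 had a conservative peak only, at rank 82.5%, and RpL22-like, a germline copy, had no candidate.

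RpL24-like, named for its relation to RpL24 and resembling the yeast assembly factor Rlp24, ranked at 44.1, 33.9, 61.4 and 54.2%, while RpL24 itself had no thresholded peak. The conservative summit of RpL24-like lay 197 bp from its TSS and 41 bp from that of CG5276. RpLP0-like, which resembles the yeast assembly factor Mrt4, ranked at 84.2, 42.6, 58.9 and 65.1%. Its nearest conservative summit lay 618 bp from the TSS, so it was not counted in that list, where RpLP0 was. In the RpS28 family RpS28b ranked at 52.0, 60.9, 74.2 and 74.5%, below the shared peak of RpS28a, and RpS28-like had no thresholded peak. The copy with the peak was a in RpS19 and b in RpS10, RpL10A and RpS15A.

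**Figure D3:**
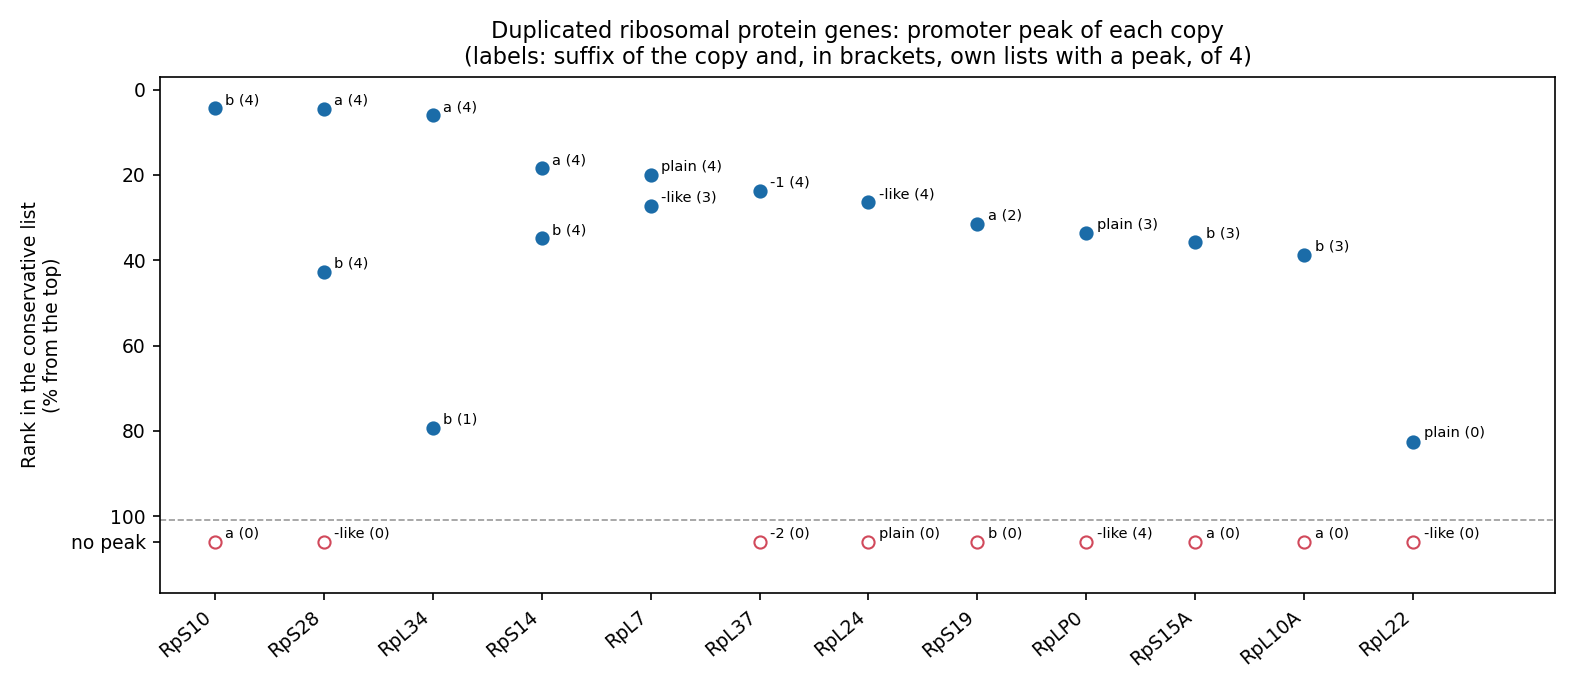
Rank of each copy's strongest promoter peak in the conservative list (percent from the top, vertical axis reversed) for 12 families with copies, with copies lacking a conservative peak as open circles at the foot. Labels give the suffix of the copy (plain for none) and the own lists with a peak; 9 of them have a copy on each side of the dashed line.

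The strongest conservative summit lay upstream of the TSS in 44 of the 53 RP genes and at or downstream of it in 9. The upstream share was 83.0%, near the 78.6% of other genes with a conservative peak. Over the own lists the median position of the strongest summit was -86.9 ± 5.72 bp for RP genes and -76.9 ± 3.38 bp for other genes (SD, n = 4). Within the RP genes it was -69.1 ± 16.5 bp for small and -113 ± 6.05 bp for large subunit genes. Summits just inside the limit of the window lay at -468 bp in RpS20 and -447 bp in RpLP2. Just outside it they lay 549 bp from RpL40, 561 bp from RpS27 and 594 bp from RpL3.

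Many peaks cannot be assigned to the RP gene alone. The strongest conservative summit was also within 500 bp of another protein-coding gene's TSS in 27 of 53 RP genes (50.9%), against 57.5% of other genes with a peak. The RP gene's TSS was the nearest in 12 of those 27 and another gene's in 15. RpL32 shared its summit with CG7943, RpS13 with CSN8, a subunit of the COP9 signalosome, RpL28 with the initiation factor gene eIF1, and RpL13 with Dref, the gene of DREF itself. Of the highest ranked genes, RpS28a, RpL34a and RpS25 had their summits nearer to another gene's TSS, of Mgat2 or Axn, Trmt61 and CG4820. With summits given to the nearest TSS only, RpL34a and RpS25 had a peak in 1 own list each. When each summit was given only to the nearest TSS, 41 RP genes (44.1%) kept a conservative peak, against 25.2% of other genes. Without another TSS within 500 bp, 26 of 55 RP genes (47.3%) and 20% of other genes had a conservative peak. With such a TSS it was 27 of 38 RP genes (71.1%) and 60.6% of other genes.

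**Figure D4:**
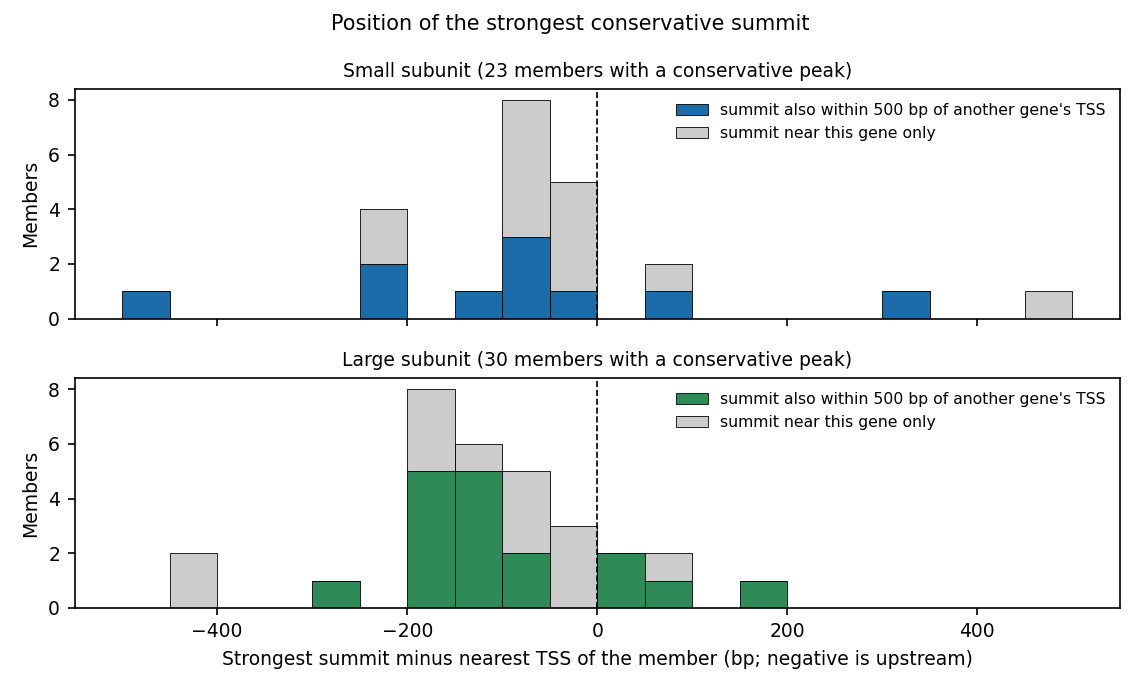
Distance from the strongest conservative summit to the nearest TSS of the gene (bp, negative is upstream) for 23 small subunit genes (above) and 30 large subunit genes (below), in bins of 50 bp. Coloured bars are summits that also lie within 500 bp of another protein-coding gene's TSS, grey bars those near the RP gene only. Of the 53 summits 44 lie upstream (83.0%, against 78.6% in other genes with a conservative peak).

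Sequence was then set beside the peaks, in promoters from 250 bp before to 50 bp after the canonical TSS (13967 of 13968 genes have one). TATCGATA, a palindrome and so read the same on both strands, was in 26 of the 53 RP promoters with a conservative peak (49.1%) and in 2 of the 40 without (5.0%), against 8.94% of all promoters. Read the other way, 26 of the 28 RP genes with TATCGATA had a conservative peak (92.9%) and 27 of the 65 without it (41.5%). The 2 exceptions were RpS15Aa and RpL39. By replicate, 92.9, 92.9, 89.3 and 85.7% of RP genes with TATCGATA had a peak in replicates 1 to 4, against 35.4, 32.3, 26.2 and 21.5% of RP genes without it. The difference averaged 61.3 ± 2.99 points and the groups were far apart in each replicate; it was set up after seeing the data and was not tested. It was 61.3 ± 3.23 points in the 55 RP genes with no other TSS within 500 bp and 39.7 points when each summit went to the nearest TSS only.

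The same direction was present outside the RP genes. Of other protein-coding genes, 77.5 ± 3.83% of those with TATCGATA and 18.8 ± 2.97% of those without had an own peak (SD, n = 4). Among promoters with TATCGATA, 90.2 ± 3.42% of RP genes and 77.5 ± 3.83% of other genes had a peak, a difference of 12.7 ± 2.54 points. Among promoters without it, 28.8 ± 6.20% of RP genes and 18.8 ± 2.97% of other genes did, a difference of 10.1 ± 4.34 points. Both are smaller than the 23.4 points over all promoters, and TATCGATA was in 28 of 93 RP promoters (30.1%); its part in the difference between RP and other genes was not tested. A match describes the letters of this window only.

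Ranks were also set beside TATCGATA. It was in the canonical promoters of 9 of the 12 highest ranked RP genes, all but RpL32, RpS2 and RpS28a, and in 23 of the 36 RP genes with a peak in all 4 own lists. Among RP genes with a peak, the median rank was 24.5 ± 2.56% with TATCGATA and 43.3 ± 7.27% without, against 28.8 ± 4.01% and 42.6 ± 0.739% in other genes. In 23 of 28 RP genes the site nearest the canonical TSS began within 100 bp upstream of it. Its centre lay a median 73.5 bp from the strongest summit, within 50 bp in 9 of 26 genes and within 100 bp in 18. Within 50 bp of the own summits TATCGATA was present at 20.8 ± 3.52% of RP peaks and 19.7 ± 0.763% of other promoter peaks.

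For the other motifs the shares of promoters with and without a conservative peak lay closer together. In the own lists CGATAT and the initiator letters CTTT each split the RP genes without overlap between replicates, in opposite directions. The replicates score the same genes, so the lack of overlap does not measure spread between genes. The polypyrimidine initiator, read as CTTT starting within 5 bp of the TSS on the transcribed strand, was in 42 of 93 RP promoters (45.2%) and 5.72% of all promoters. It was in 22 of 53 RP genes with a conservative peak (41.5%) and 20 of 40 without. Over the own lists 39.9 ± 5.28% of RP genes with CTTT and 53.4 ± 5.40% of those without it had a peak. In other protein-coding genes the shares were 23.7 ± 3.07% with CTTT and 23.9 ± 3.04% without it. CGATAT, which shares letters with TATCGATA and can overlap it, was in 28.3% of RP promoters with a conservative peak and 25% without, against 18.4% of all promoters. Over the own lists 62 ± 2.31% of RP genes with CGATAT and 41.9 ± 6.52% of those without it had a peak, with no overlap between the 2 groups. In other protein-coding genes the shares were 47.9 ± 3.25% with CGATAT and 18.5 ± 3.00% without it. Of the 93 RP promoters 28 held TATCGATA, 25 CGATAT and 42 at least 1 of them, so some held both. A conservative peak was at 22 of the 51 with neither (43.1%) and 27 of the 65 without TATCGATA (41.5%). In the own lists these shares were 25 ± 7.90 and 28.8 ± 6.20%. The part of CGATAT apart from TATCGATA was not tested. GGTCACAC, the motif of the factor M1BP, was in 18.9% of RP promoters with a conservative peak and 10% without, against 7.52% of all promoters. Over the own lists 46.4 ± 9.22% of RP genes with GGTCACAC and 47.5 ± 4.68% of those without it had a peak.

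TAATTA, the homeodomain core, was in 24.5% of RP promoters with a conservative peak and 22.5% without, against 20% of all promoters. Over the own lists 51.1 ± 4.35% of RP genes with TAATTA and 46.1 ± 6.13% of those without it had a peak, and the replicates overlapped. Within 50 bp of the own summits TAATTA was at 13.6 ± 2.35% of RP peaks and 8.95 ± 0.767% of other promoter peaks. The RP share rests on 6 of 49, 8 of 47, 5 of 42 and 5 of 38 summits in replicates 1 to 4. GAGAGAG, the GAGA factor motif, was in none of the 93 RP promoters and 6.19% of all, and the TATA box, read as TATAAA starting 40 to 20 bp before the TSS, was in 1 and in 7.90% of all. CAGCTG, an E-box, was in 7.55% with and 12.5% without, against 17.9% of all promoters and 54.8% of mitochondrial RP promoters.

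**Figure D5:**
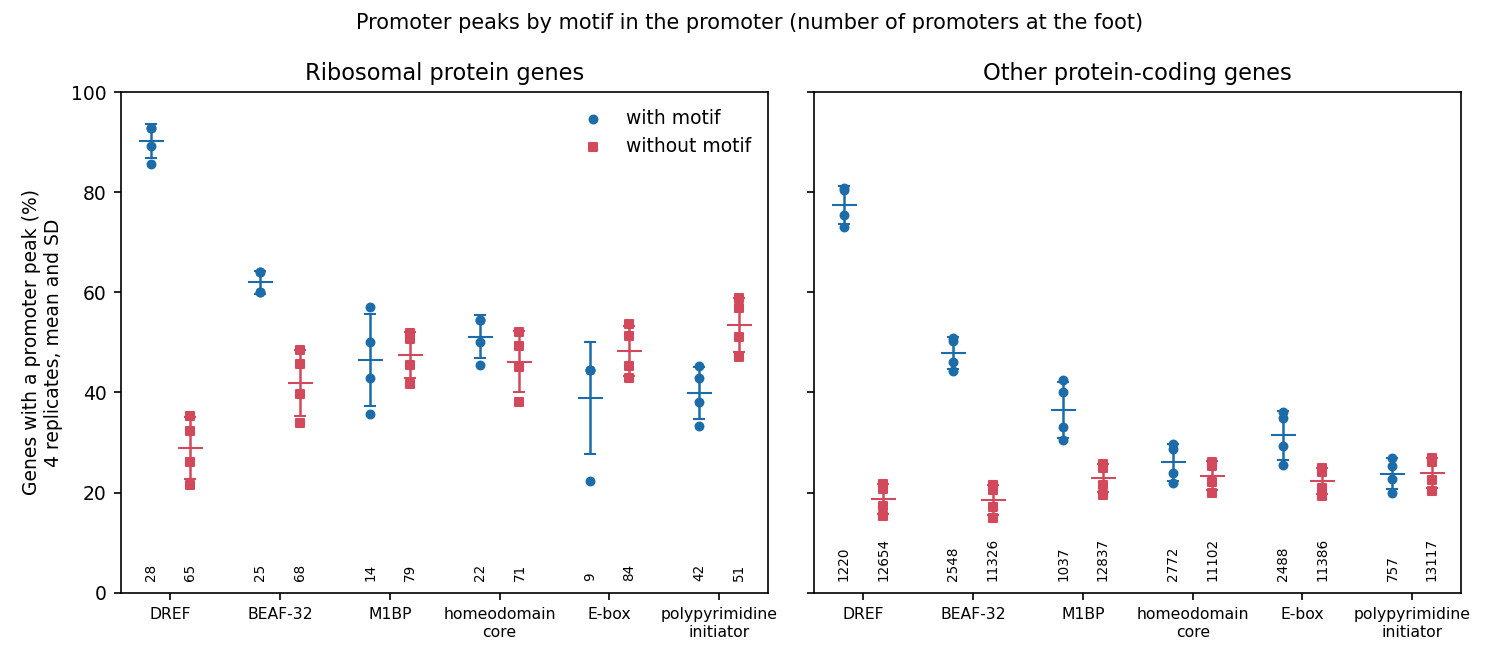
Share of RP genes (left) and other protein-coding genes (right) with a promoter peak in the own lists (percent), split by whether the canonical promoter holds a motif. Points are the 4 replicates with mean and SD, and the numbers at the foot count promoters; for the DREF motif the shares among RP genes are 90.2% with and 28.8% without.

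Set beside the 73 mitochondrial RP genes, which build the ribosome of that organelle, and the 48 proteasome genes, which build another broadly expressed complex, RP genes had overlapping shares in the own lists. In the conservative list 68.5% of mitochondrial RP and 62.5% of proteasome genes had a peak, and 57% of RP genes. Over the own lists RP genes averaged 47.3 ± 5.34% and mitochondrial RP genes 44.9 ± 5.29%, a difference of 2.45 ± 5.91 points (higher in 3 of 4 replicates, exact two-sided sign-flip permutation p = 0.5, adjusted 0.6), or 0.540 points without replicate 3 and 5.17 points without replicate 4. Against 48.4 ± 4.62% of proteasome genes the difference was -1.13 ± 5.78 points (exact two-sided sign-flip permutation p = 0.875, adjusted 0.875), and it was -2.40 points without replicate 1, -2.67 points without replicate 3 and 1.55 points without replicate 4. With TATCGATA in the promoter RP genes stood 11.0 ± 8.44 points above proteasome genes, and without it the difference was -9.35 ± 5.86 points. Neither of these splits was tested. In the ranked lists the difference was -8.43 ± 4.26 points against mitochondrial RP genes and 11.8 ± 4.81 points against proteasome genes, with the same sign in 4 of 4 replicates each.

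Below the threshold, each replicate's ranked list holds all candidates the authors kept, between 39011 and 44390 per replicate. Candidates lay near 81, 79, 84 and 75 RP genes in replicates 1 to 4, against 61.8, 60.7, 62.9 and 60.6% of all protein-coding genes, and near 86 in at least 1 replicate (92.5%, against 77.3%). All 39 small subunit genes and 47 of 54 large subunit genes had one. RP genes without any thresholded peak numbered 36, of which 29 had a candidate. The 7 with none, all large subunit genes, were RpL5, RpL10, RpL10Aa, RpL15, RpL21, RpL22-like and RpL38. Their nearest candidate lay between 766 and 694721 bp away. The nearest conservative summit was farther, from 64763 bp at RpL22-like to 2731175 bp at RpL15, in a list with far fewer peaks (5203). RpL22-like had a candidate 2301 to 3070 bp away in each ranked list. These distances were not compared with those of other genes. Whether the subunit or the location goes with the missing candidates was not tested.

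RpL13A differed from the other RP genes without a thresholded peak. Its candidate stood at position 67, 94, 53 and 91 of the ranked lists of replicates 1 to 4, the top 0.153, 0.241, 0.119 and 0.229%, with the maximum score of 1000 in each. The summit lay 250, 272, 268 and 237 bp upstream of the TSS, and Dph4 and Spec2 have a TSS within 500 bp of it too. The peak was absent from the own thresholded lists although they start at a score of 830 (the score is a scaled irreproducible discovery rate, IDR, and a high score means a reproducible peak). It was the only RP gene so affected, among 107, 105, 55 and 88 ranked peaks at that score that were absent from the thresholded lists (2.88, 2.83, 2.13 and 2.96%). Per the deposited file records the thresholded lists were derived with 1 more input file than the ranked ones, and its content is unknown.

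The next candidates by rank were weaker. RpL18 ranked at 26.7, 9.89, 5.91 and 12.9% of the ranked lists and RpS18 at 34.6, 10.3, 8.34 and 14%. RpS19b had a candidate in replicates 1 and 3 at 7.94 and 21.8%, and RpS3A, the RP gene of chromosome 4, in replicate 3 only at 8.34%. These ranks differed more than 2-fold between replicates in RpL18, RpS18 and RpS19b.

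Other genes of translation and of such promoters were counted in 3 lists, beside which 32.7% of all protein-coding genes had a conservative peak and 17.6% a peak in all 4 own lists. Of 10 elongation and ribosome-associated genes 7 had a conservative peak, 2 had a peak in all 4 own lists and 5 in none. Those 2 were eEF2, the translocase, at a mean rank of 17.9 ± 3.70%, and eEF1gamma at 17.4 ± 6.25%, whereas eEF1alpha1, the main carrier of aminoacyl-tRNA, had no thresholded peak. Of 17 assembly and rRNA genes 12 had a conservative peak, 5 a peak in all 4 own lists and 7 none, with RIOK2, a kinase of small subunit maturation, highest at 11.7 ± 4.64%. Of 8 genes of transcription factors tied to such promoters 6 had a conservative peak. Dref, Tbp and BEAF-32 had a peak in all 4 own lists at 23.7 ± 5.28, 35.0 ± 6.13 and 25.2 ± 8.13% (SD, n = 4), and M1BP and Trl had no thresholded peak. The Dref peak is the one also counted for RpL13. Its conservative summit lay 98 bp from the Dref TSS and 182 bp from the RpL13 TSS.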

How the data were processed

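The authors deposited peak lists on dm6 alignments, per their deposited file records, 1 thresholded and 1 ranked list per replicate and several lists over all replicates. No source used here names the aligner or peak caller. The deposited columns give the authors' signal per peak (peak height, normalization not stated), a score of at most 1000 scaled from the IDR, the −log10 q-value and the summit offset, stored as another value. Ranks use the authors' signal within a list only. Gene models came from Ensembl release 115 (BDGP6.54) and sequence from RefSeq Release 6; peaks lay within its chromosome ends. Summits were assigned to every protein-coding gene with a TSS within 500 bp in Python 3.11.15 with pandas 2.3.3, numpy 2.4.6 and scipy 1.17.1, and assignment was tested on simulated summits. Replicates are biological by the labels. Gene groups were compared over the 4 replicates' own lists by exact sign-flip permutation, whose p-values measure the spread between these replicates. Alternatives varied distance, TSS choice, summit ownership, the list and the replicates. Genes named one by one are the 12 best mean ranks with a peak in all 4 own lists, copies that differ, sta, the 5 best candidates without a thresholded peak and the 5 conservative peaks found in fewest own lists; others are named for small counts or as examples chosen after their values were seen. Members, lists and tests were chosen with earlier results of these data known. The 14 signal columns of series-level ranked lists were not used, some of them per replicate without a sample name. Depth is unknown because the lists give no reads per sample, and the interval on a share covers counting error only. A few members are counted in every total but not reported or drawn one by one here.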

Additional observations from a re-analysis of the deposited data

Results flagged for a closer look

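A gap test for a replicate far from the other 3 (Dixon's test) was run on 32 sets of 4 replicate values, of which chance is expected to flag about 1 in 20. It flagged 5. Replicate 2 stood above the others for RpL26, at rank 2.38%, and replicate 4 for RpS10b, at 3.74%. Replicate 3 stood below the others for RpL32, at 0.555%, and for RpL34a, at 22.2%. Replicate 3 also had the lowest share of mitochondrial RP genes with a peak, 37.0%, and had the shortest list of peaks, 2523.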

How the results depend on the processing

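The share of RP genes with a conservative peak stayed within its counting interval in 16 of 18 alternatives and was 44.1% with the nearest TSS as owner and 38.7% with peaks overlapping all 4 own lists; other genes were lower in each (25.2 and 17.6%). RP genes exceeded other protein-coding genes by 18.5 to 26.5 points in all 10 alternatives and by 22.3 to 25 points leaving out each replicate in turn; the difference in median rank was -6.72 to -5.00 and -7.50 to -5.48. Small minus large subunit genes was -0.142 points with 500 bp upstream to 100 bp downstream, 9.90 with the nearest TSS as owner, 4.38 at 250 bp, and 0.190 to 4.04 without 1 replicate. Genes with minus without a copy was -2.92 points where no other TSS lay within 500 bp, an alternative added after seeing the data, and 8.92 to 12.1 without 1 replicate. RP minus proteasome genes was 2.10 at 1000 bp, 0.958 with the canonical TSS, 1.56 with interval overlap and 4.18 with the upper 50% of peaks; without 1 replicate it was -2.67 to 1.55, positive without replicate 4. RP minus mitochondrial RP genes was 1.91 to 4.08, and 0.540 (without replicate 3) to 5.17 (without replicate 4). Mean ranks of the 12 best genes were unchanged in the 55 cases where a peak stayed in every own list. Ranks were set over the whole list beforehand, so a gene that kept its strongest summit had to keep its rank. These cases therefore do not check the ranks. In 5 cases a peak did not stay in every own list, for 4 genes with the nearest TSS as owner and for RpS28a also at 250 bp. The cause was not tested. No paired analysis was possible because all samples belong to 1 group, so no sample groups could be blocked by replicate; gene groups were compared within each replicate. Depth is unknown, so an absent peak is an absent call and not an absence of binding, and with 4 replicates no p under 0.13 can occur.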

Other observations

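Of the RP genes, 29 host a snoRNA on their own strand. Among these 15 had a conservative peak (51.7%), and 38 of the 64 without a snoRNA did (59.4%). In the own lists the shares were 40.5 ± 6.53% with and 50.4 ± 5.16% without (SD, n = 4). Of the other 55 protein-coding genes that host a snoRNA, 40 had a conservative peak (72.7%).

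By chromosome, 12 of 15 RP genes on X had a conservative peak, where 36.6% of all protein-coding genes did. On 2L it was 8 of 19, on 2R 13 of 21, on 3L 8 of 14 and on 3R 12 of 23, where 31.0, 32.7, 31.6 and 32.9% of all protein-coding genes had one. The only RP gene on chromosome 4, RpS3A, had none, where 21.3% of all protein-coding genes had one.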
